A study of Mus musculus with 8 samples.

Results

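Lipogenesis and triglyceride synthesis were followed through 36 listed genes, all of which were found among the 54385 gene identifiers of a count table from mouse brown adipose tissue. The list follows function, from the making of acetyl-CoA to the last step of triglyceride assembly, and was drawn up with earlier results of these data known. RNA from interscapular brown fat of C57BL/6N mice aged 20 weeks and fed chow was sequenced in 8 libraries, 4 per group. The design text calls the same tissue inguinal. Both groups carried Adcy3-fl/fl, that is, floxed alleles of the adenylyl cyclase 3 gene. The control group (WT) had this genotype alone, and the knockout group (cKO) also carried Adipoq-Cre, a Cre recombinase under the promoter of the adiponectin gene, which acts in adipocytes. The other cells of the tissue keep the gene. The title of WT replicate 4 names it a control while its genotype entry carries the Cre, and it was kept with the controls. Adcy3 stood at 112, 118, 61.7 and 118 CPM (counts as a share of the library, scaled by TMM) in WT replicates 1 to 4 and at 18.0, 20.9, 25.3 and 21.5 CPM in the cKO replicates, so that replicate 4 lay among the other controls. Nothing in the labels says that each library came from its own animal, and p-values then measure only the spread between libraries. Totals ran from 10713043 to 32437214 estimated counts, and WT replicate 1 was the deepest library.

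Fatty acids are built in the cytosol from citrate that leaves the mitochondrion. ATP citrate lyase splits it to acetyl-CoA, acetyl-CoA carboxylase turns acetyl-CoA into malonyl-CoA, and fatty acid synthase joins the units with NADPH as reductant. Elongases and desaturases then reshape the chain, and acyltransferases load it onto glycerol 3-phosphate to give triglyceride. In many tissues SREBP-1c (from Srebf1) and ChREBP (from Mlxipl) drive the transcription of these enzymes in response to insulin and glucose. Brown fat both makes fatty acids and burns them for heat.

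Promoter sequences are shown for the synthase and the lyase (Fasn and Acly), which varied together between libraries, for the regulator gene Mlxipl, whose window holds an E-box, and for Gpam, the member with the lowest unadjusted p between groups. Each is the 250 bases before the start of the gene, from RefSeq on GRCm38.p6, written 5′ to 3′ on the strand of the gene. Capitals mark matches on either strand to 4 motifs, the sterol regulatory element TCACNCCAC, the E-box CACGTG, the CCAAT box CCAAT and the GC box GGGCGG.
Fasn, chr11:120824548-120824797 (minus strand): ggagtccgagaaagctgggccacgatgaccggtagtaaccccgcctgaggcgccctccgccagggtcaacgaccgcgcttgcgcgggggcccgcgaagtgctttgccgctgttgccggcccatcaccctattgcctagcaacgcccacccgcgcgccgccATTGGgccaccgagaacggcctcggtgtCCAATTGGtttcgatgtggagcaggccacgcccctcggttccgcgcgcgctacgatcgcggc
Acly, chr11:100528001-100528250 (minus strand): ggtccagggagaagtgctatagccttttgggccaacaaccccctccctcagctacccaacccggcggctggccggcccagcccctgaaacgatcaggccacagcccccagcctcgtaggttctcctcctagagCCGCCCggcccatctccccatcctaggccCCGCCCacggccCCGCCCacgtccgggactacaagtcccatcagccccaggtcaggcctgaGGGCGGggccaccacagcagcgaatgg
Mlxipl, chr5:135089640-135089889 (plus strand): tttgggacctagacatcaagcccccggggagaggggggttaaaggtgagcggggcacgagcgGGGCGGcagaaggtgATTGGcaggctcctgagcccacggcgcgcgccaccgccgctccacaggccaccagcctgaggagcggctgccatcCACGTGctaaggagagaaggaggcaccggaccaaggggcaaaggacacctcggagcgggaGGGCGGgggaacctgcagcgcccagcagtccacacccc
Gpam, chr19:55127239-55127488 (minus strand): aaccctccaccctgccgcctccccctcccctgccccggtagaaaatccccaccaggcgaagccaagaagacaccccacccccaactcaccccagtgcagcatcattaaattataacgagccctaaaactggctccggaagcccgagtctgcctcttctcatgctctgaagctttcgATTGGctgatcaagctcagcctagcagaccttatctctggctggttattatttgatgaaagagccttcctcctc
The Fasn window held 3 CCAAT boxes, of which a forward and a reverse match overlap, 62 to 58 and 59 to 55 bases before the start. The Acly window held 4 GC boxes, the nearest 27 to 22 bases before the start. In the Mlxipl window the E-box lay 98 to 93 bases before the start. The Gpam window shown held 1 CCAAT box, 74 to 70 bases before the start, on the reverse strand. Mlxipl and Gpam had 2 windows each, of which 1 is shown. The other window of Gpam (chr19:55099478-55099727) held a GC box. The table held promoters for 29 members, with 40 windows in all, and none for Scd1, Scd2, Elovl3, Fads1, Gpat4, Dgat1 or Dgat2. The GC box was present in 52.5% of the 40 windows and in 32.7% of all 32851 promoter windows, and the CCAAT box in 47.5% and 33.8%. The E-box was in 10% and 6.02%, and the sterol regulatory element in 5% and 1.05%, that is, in 2 windows (of Mlxipl and Acsl1). The match of Mlxipl lies in its window that is not shown (chr5:135106641-135106890). These are matches of letters, and windows of 1 gene can overlap.

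Counts of the lipogenic genes were a sizeable share of each library. The 36 genes together took 9.07% to 12.2% of all counts in WT libraries (mean 10.7% ± 1.75, SD, n = 4) and 8.18% to 13.2% in cKO libraries (10.1% ± 2.20). Most of this came from the desaturase Scd1 and from Fasn, which took 6.55% to 9.43% in WT and 5.63% to 10.2% in cKO, and the ranges of the groups overlap. These shares grow with transcript length. On a scale corrected for gene length (TPM, WT libraries, lengths of merged exons), the 36 genes took 3.03% to 4.24% in WT (mean 3.64% ± 0.653), and Scd1 stood first at 20066 ± 4142 TPM and Fasn second at 4562 ± 1209 TPM. All WT values of Scd1 lay above all of Fasn, and all of Fasn above all of Thrsp, the third at 2038 ± 607 TPM. Among all genes by mean WT TPM, Scd1 ranked 13 and Fasn 21. From Thrsp downwards most neighbours in the order overlapped, with Acly at 1256 ± 553 TPM, the acyltransferase Agpat2 at 1001 ± 239.5 TPM and Dgat2, the last enzyme of the pathway, at 972 ± 138 TPM. At the other end the polyunsaturated fat desaturases Fads1 and Fads2, the elongase Elovl1 and the acyltransferase Gpat3 lay between 5.51 and 7.50 TPM, and the phosphatidate phosphatase Lpin2 at 2.13 ± 0.202 TPM. Pklr, the liver-type pyruvate kinase and a classical ChREBP target, was low, with 0.0714 to 0.830 CPM over the 8 libraries, and it alone did not pass the filter on low counts.

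Between the groups, none of the 35 members that passed the filter was called. edgeR's quasi-likelihood test called 0 of 35 at a Benjamini-Hochberg adjusted p of 0.05, against 10 of 14553 genes tested (0.0687%, with 0.0481% higher and 0.0206% lower in cKO), and DESeq2 (0.316% of its tested genes) and limma-voom (0.0687%) called 0 members as well. At an unadjusted edgeR p under 0.05 there were 2 members, Gpam and Dgat2, against 5.6% of all genes tested. Without WT replicate 1 there were 10, beside 6.59% of all genes tested, namely Acly, Aacs, Me1, G6pdx, Pgd, Elovl5, Elovl6, Acsl5 and Gpam higher and Dgat2 lower in cKO, and edgeR's adjusted p of these 10 was 0.685 to 0.750. WT replicate 1 was the highest library for 18 of the 35 members, among them Acly, Me1, G6pdx and Elovl6. Leaving it out by itself lowers the control mean of those members. No conclusion is drawn from these p-values, here or for the single members below. Without WT replicate 4 there were 2 (Gpam and Dgat2), beside 6.13% of all genes. Without WT replicates 1 and 4 there were 3 (G6pdx, Gpam and Dgat2), beside 7.85%, and without cKO replicate 2 there were 0, beside 3.72%. In CPM the groups did not overlap for 0 members and for 3.5% of all genes. Overlap on the TPM scale was not counted. Log2 fold changes, cKO over WT, ran from -0.37 to 0.46 with a median of 0.07, beside 0.01 over all genes tested, and 26 were positive and 9 negative (51.8% of all genes were positive). The 95% interval lay within a 2-fold change in either direction for 33 of 35 members and within 1.5-fold for 21. It was narrowest for the acyltransferase Dgat1 (-0.32 to 0.15) and widest for Elovl3 (-0.87 to 1.74), for which a change of more than 2-fold upwards stays inside the interval. The median moved with single libraries, from -0.03 without WT replicate 4 to 0.19 without WT replicate 1.

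**Figure D1:**
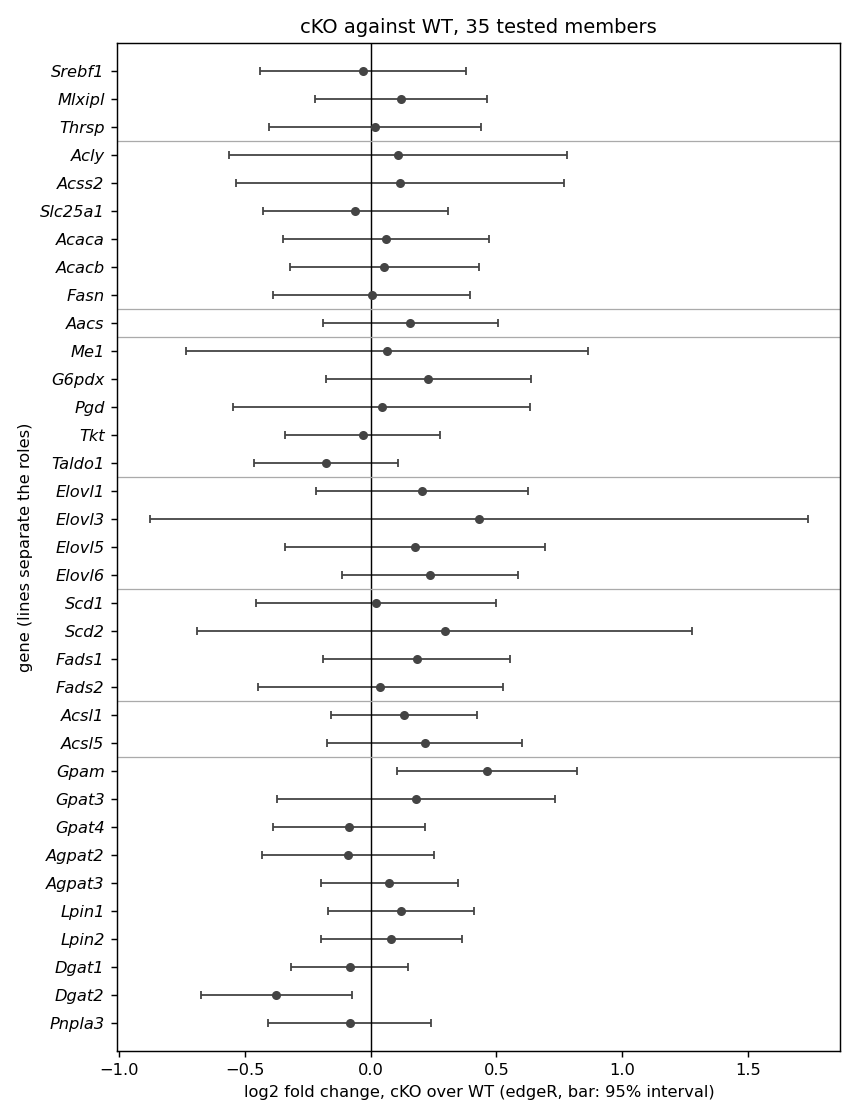
Log2 fold change of each tested member, cKO over WT (x axis, edgeR fit, bars are 95% intervals), in the order of the roles (y axis, grey lines between roles). The intervals of 33 of 35 members cross 0, and those of Gpam and Dgat2 lie on opposite sides of it.

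The regulators did not differ beyond their spread. Srebf1, which encodes SREBP-1, held 528, 327, 329 and 292 CPM in WT replicates 1 to 4 and 292, 402, 412 and 337 CPM in cKO replicates 1 to 4. WT replicate 1 stood above all 7 other libraries, and the lowest WT and cKO libraries were level. The log2 fold change was -0.03 (95% interval -0.44 to 0.38). For Mlxipl the WT libraries spanned 359 to 548 CPM and the cKO libraries 412 to 581 CPM, with a log2 fold change of 0.12 (95% interval -0.22 to 0.46). Thrsp, which encodes Spot 14, a small protein that is induced with the lipogenic enzymes, held 3252, 1981, 2328 and 1621 CPM in WT and 2059, 2188, 2776 and 2265 CPM in cKO. Its highest and its lowest library were both controls, replicates 1 and 4, and the cKO libraries lay between them.

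The route from citrate to palmitate showed the same arrangement. Acly held 5603, 3311, 2589.9 and 2149.5 CPM in WT replicates 1 to 4, and 4772, 2974, 3252 and 3723 CPM in cKO replicates 1 to 4 (3413 ± 1536 and 3680.2 ± 791, SD, n = 4 each). Its WT values spanned a range of 2.61-fold, which encloses every cKO value, and the log2 fold change was 0.11 with all libraries and 0.46 without WT replicate 1 (unadjusted p = 0.0347, edgeR adjusted p = 0.738). Fasn held 34337, 27915, 19989 and 20457 CPM in WT and 30401, 24643, 21924 and 26010.0 CPM in cKO (25674 ± 6822 and 25745 ± 3538). The means were almost equal (log2 fold change 0.00, 95% interval -0.39 to 0.40), while replicate 1 was the highest library in each group. Acaca, the cytosolic acetyl-CoA carboxylase, held 3850.1, 2934, 2236 and 2196 CPM in WT and 3370.2, 3129, 2290.3 and 2905 CPM in cKO (log2 fold change 0.06). Acaca shares 33.5% of its 31-base sequences with other genes, chiefly the processed pseudogene Gm5182, with a WT mean of 8.46 ± 6.80 and a cKO mean of 10.5 ± 4.79 CPM. Acacb, the carboxylase at the mitochondrion, the acetyl-CoA synthetase Acss2 and the citrate carrier Slc25a1 had log2 fold changes of 0.06, 0.12 and -0.06. Of the 6 genes of this group 5 were positive and 1 negative, with a median of 0.06, and with upper quartile factors Fasn was at -0.01. Aacs, which activates acetoacetate for lipid synthesis, averaged 372 ± 88.9 CPM over the controls and 415 ± 45.6 CPM over the knockouts.

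**Figure D2:**
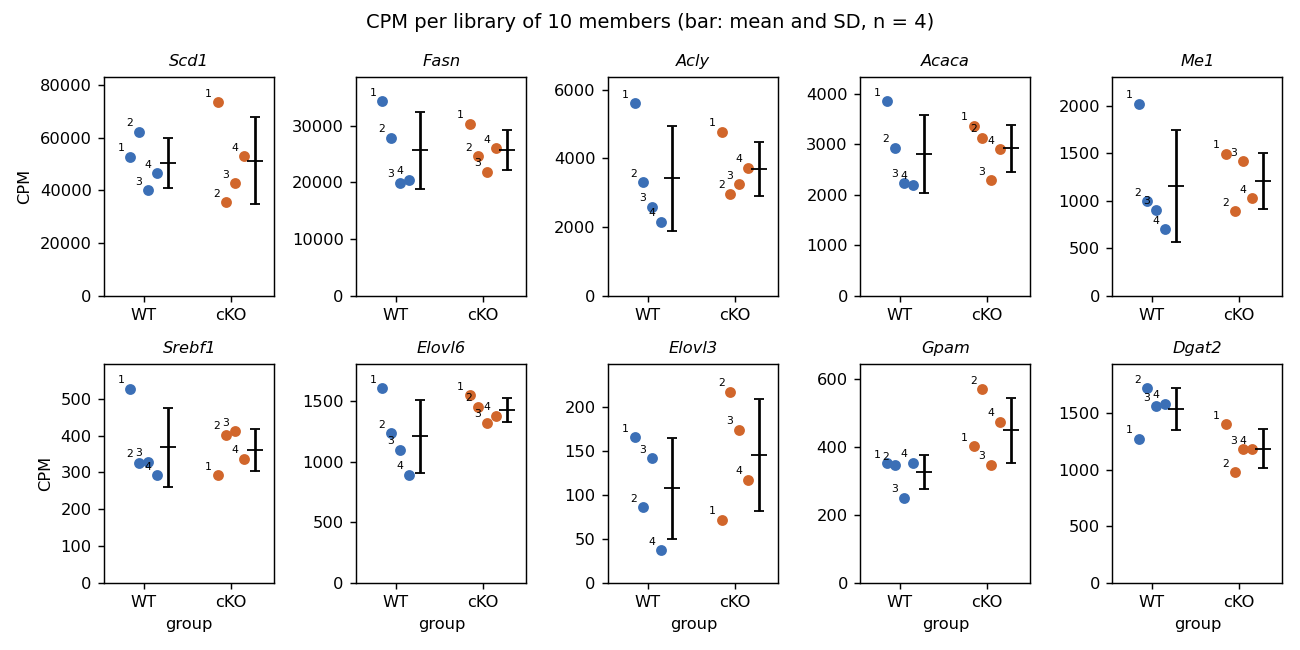
CPM of 10 members in each library (y axes, from 0), WT in blue and cKO in orange, with the replicate number beside each point and a bar for the mean and SD of each group (n = 4). WT replicate 1 is the highest point for Fasn, Acly, Acaca, Me1, Srebf1 and Elovl6, while the groups overlap in every panel.

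NADPH for the synthase comes from malic enzyme and from the pentose phosphate pathway. Me1, the cytosolic malic enzyme, held 2021, 993, 904 and 701 CPM in WT and 1495, 889.6, 1416 and 1027 CPM in cKO. The control libraries alone spread 2.88-fold, and the log2 fold change of 0.06 had a 95% interval of -0.73 to 0.86. Without WT replicate 1 the change was 0.48 (unadjusted p = 0.0334, edgeR adjusted p = 0.738). Near copies of Me1 exist. Me1 shares 36.9% of its 31-base sequences with other genes, and on chromosome 13 of GRCm38 lie Gm7049, a processed pseudogene (62813076 to 62814787, plus strand), and Gm48795, a long noncoding RNA on the minus strand (62813969 to 62815523), which share 65.3% and 74.4% of theirs with Me1. A further near copy, Gm7329, was at 0 CPM in all 8 libraries. Gm7049 and Gm48795 took 0.0108% to 0.0935% of the counts of Me1 and these copies in the WT libraries and 4.10% to 4.60% in the cKO libraries. Gm48795 was among the genes edgeR called (WT mean 0.324 ± 0.172 and cKO mean 38.3 ± 9.78 CPM, adjusted p = 9.08e-06), and so was Gm7049 (0.216 ± 0.251 and 18.1 ± 5.80 CPM, adjusted p = 0.00481). If WT replicate 4, which held 0.0755 CPM of Gm48795 and 0 of Gm7049, is counted as a knockout, neither is called (edgeR adjusted p = 0.685 for each). Without WT replicate 3 Gm7049 lost its call (edgeR adjusted p = 0.0727), and with a replicate block as well (0.344). Estimated counts cannot place reads between such copies with certainty. Me1 summed with its copies changed by 0.13 log2 units, which edgeR did not call (adjusted p = 0.977).

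In the pentose phosphate pathway, G6pdx, the entry enzyme, averaged 218 ± 67.1 CPM over the controls and 255 ± 29.7 CPM over the knockouts, a log2 fold change of 0.23 (95% interval -0.18 to 0.64), which was 0.46 without WT replicate 1 (unadjusted p = 0.00593, edgeR adjusted p = 0.699). G6pdx shares 23.6% of its 31-base sequences with other genes, among them Ikbkg, which overlaps it on the opposite strand. Pgd, which catalyses the second NADPH-yielding step, held 887, 448, 534 and 339.9 CPM in WT and 577, 543, 659 and 499 CPM in cKO. Again the cKO libraries lay inside the range of the controls. The sugar-rearranging enzymes Tkt and Taldo1 had log2 fold changes of -0.03 and -0.18.

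All 4 elongases and all 4 desaturases had positive log2 fold changes, with medians of 0.22 and 0.11, and none was called by edgeR. The sign held with DESeq2 size factors and upper quartile factors. On the TPM scale the cKO mean was above the WT mean for Elovl3, Elovl6 and Scd2 and below it for Elovl1, Elovl5, Scd1, Fads1 and Fads2. Scd1 was negative with limma-voom (-0.02), with a replicate block (-0.01) and without any 1 of WT replicate 3 (-0.07), WT replicate 4 (-0.01) or cKO replicate 1 (-0.20). Fads2 was negative without any 1 of WT replicate 4 (-0.08), cKO replicate 1 (-0.08) or cKO replicate 3 (-0.05) and without WT replicates 1 and 4 together (-0.17). With WT replicate 4 moved to cKO Elovl3, Elovl5, Scd1, Scd2 and Fads2 were negative (-0.17 to -0.03). Elovl6, which extends palmitate to stearate, held 1612, 1238, 1100.2 and 895 CPM in WT and 1551, 1455, 1324 and 1384 CPM in cKO (1211 ± 302 and 1429 ± 97.7, log2 fold change 0.24, 95% interval -0.11 to 0.59). Without WT replicate 1 that change was 0.41 (unadjusted p = 0.0109, edgeR adjusted p = 0.712). The cKO libraries lay close together, while the controls ran from above to below them. Elovl3, an elongase of very long chains that marks brown fat and responds to cold, held 165, 85.5, 141 and 37.1 CPM in WT and 71.3, 217, 174 and 117 CPM in cKO, a spread that leaves the comparison (log2 fold change 0.43 ± 0.54, SE) undecided. Scd1, the main delta-9 desaturase of adipose tissue, held 52744, 62288, 39950.5 and 46548 CPM in WT and 73528, 35568, 42632 and 53037 CPM in cKO. Both its highest and its lowest library were cKO libraries. Its neighbour on chromosome 19, Scd2, held 549, 352, 352 and 142 CPM in WT and 632, 312, 365 and 403 CPM in cKO. Fads1 and Fads2 were at 13.6 ± 0.424 and 10.2 ± 2.25 CPM in WT and at 15.4 ± 3.99 and 10.4 ± 2.95 CPM in cKO.

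Triglyceride assembly held both members that passed the unadjusted threshold, in opposite directions. Gpam, the mitochondrial glycerol 3-phosphate acyltransferase that starts the route, held 353, 347, 250.2 and 353 CPM in WT and 403, 571, 347 and 475 CPM in cKO (326 ± 50.4 and 449 ± 96.5). Of the 4 cKO libraries, 3 stood above every control, and cKO replicate 3 lay among the controls. The log2 fold change was 0.46 ± 0.16 (SE, 95% interval 0.11 to 0.82, unadjusted p = 0.0152), and it failed the correction (edgeR adjusted p = 0.882, DESeq2 adjusted p = 0.554). Dgat2, which adds the last acyl chain, held 1276, 1724, 1565 and 1586 CPM in WT and 1403, 976, 1182 and 1185 CPM in cKO (1538 ± 188 and 1187 ± 174). Only WT replicate 1 and cKO replicate 1 crossed over between the groups. The log2 fold change was -0.37 ± 0.14 (SE, 95% interval -0.67 to -0.08, unadjusted p = 0.0182), and it too failed the correction (edgeR adjusted p = 0.882, DESeq2 adjusted p = 0.572). Over 18 other settings Gpam ran from 0.33 to 0.59 and Dgat2 from -0.47 to -0.26, and neither was called in any of them, the lowest adjusted p being 0.129 for Gpam without a count filter.

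The 8 other genes of assembly had log2 fold changes from -0.09 to 0.18. Dgat1, the second diacylglycerol acyltransferase, averaged 209.9 ± 15.4 CPM over the controls and 198 ± 16.3 CPM over the knockouts. The acyltransferases Gpat4, Agpat2 and Agpat3 had log2 fold changes of -0.08, -0.09 and 0.07, the phosphatases Lpin1 and Lpin2 of 0.12 and 0.08, and Pnpla3, a lipid droplet protein that SREBP-1c induces in liver, of -0.08. Gpat3 had 13.6 ± 2.38 and 15.3 ± 6.14 CPM and shares 32.3% of its 31-base sequences, mostly with the antisense gene 4930458D05Rik. Over all 10, 5 were positive and 5 negative. The synthetases Acsl1 and Acsl5, which activate fatty acids to acyl-CoA, averaged 1883 ± 279.8 and 299 ± 73.7 CPM over the controls, and 2065 ± 195 and 347 ± 58.3 CPM over the knockouts.

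The members differed widely between control libraries, and 2 controls, WT replicates 1 and 4, held many of the extreme values. WT replicate 1 held the highest value of 18 of the 35 members (51.4%) and the lowest of 0, whereas it was the highest library for 8.91% of all genes tested. WT replicate 4 held the lowest value of 17 members (48.6%) and the highest of 0, against 9.76% of all genes at their lowest there. For 11 members WT replicate 1 was the highest and WT replicate 4 the lowest library, a pattern of 1.42% of all genes. The members' median deviation from the mean of the other 7 libraries was 0.37 log2 units in WT replicate 1 and -0.36 in WT replicate 4, while over all genes it was -0.00 and 0.02. WT replicate 1 was singled out with results of these data known, and WT replicate 4 after its values were seen, so these shares are a description.

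**Figure D3:**
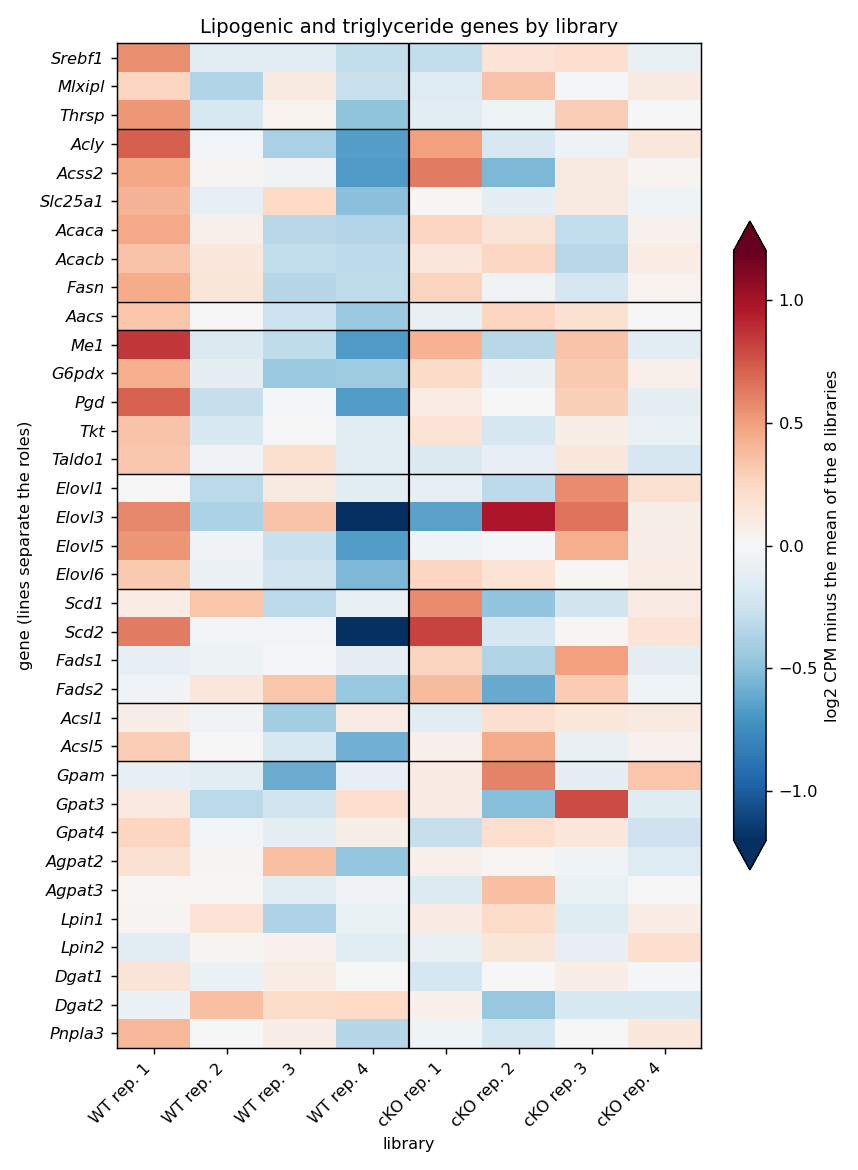
Log2 CPM of the 35 members (y axis, lines separate the roles) in each library (x axis, a line separates WT from cKO), as the difference from the gene's mean over the 8 libraries. WT replicate 1 is red and WT replicate 4 blue for most genes from Srebf1 to Elovl6, and neither colour holds through the glycerolipid genes at the bottom.

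**Figure D4:**
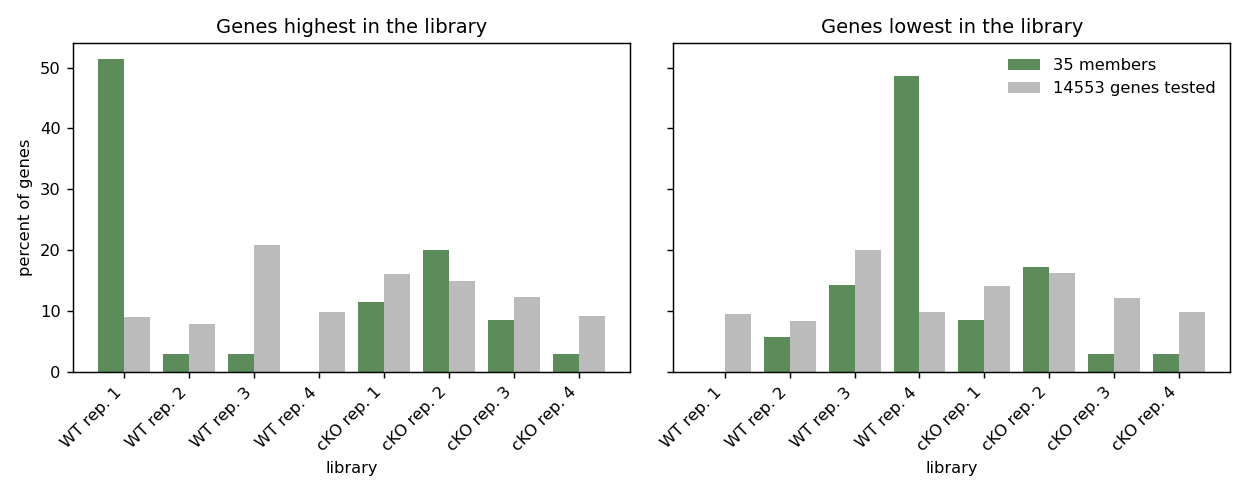
Share of genes (y axis, percent) whose highest (left) or lowest (right) value lies in each library (x axis), for the 35 members in green and all 14553 genes tested in grey. WT replicate 1 holds the highest value of 51.4% of members and WT replicate 4 the lowest of 48.6%.

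The counts by role were as follows, with no test between roles. All 5 NADPH genes and 5 of 6 genes of acetyl-CoA and malonyl-CoA supply and the synthase were highest in WT replicate 1, compared with 3 of 10 genes of triglyceride assembly and 0 of 4 desaturases. Lowest in WT replicate 4 were 4 of 6 genes of supply and synthase, 3 of 4 elongases, 2 of 5 NADPH genes, 3 of 10 genes of assembly and 1 of 4 desaturases, so the 2 ends did not give the same order of roles. WT replicate 1 exceeded WT replicate 4 by 4.44-fold for Elovl3, 3.87-fold for Scd2, 2.88-fold for Me1, 2.61-fold for Pgd and for Acly, 2.29-fold for Elovl5 and 1.68-fold for Fasn. Scd1 (1.13-fold), Gpam (0.998) and Dgat2 (0.804) did not share that gap. The SD of log2 CPM was larger in WT than in cKO for 23 of 35 members, with medians of 0.33 and 0.22, whereas over all genes it was larger in WT for 48.3%, with medians of 0.24 in each group.

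Skeletal muscle transcripts also differed widely between libraries. The summed CPM of 14 muscle genes was 48.2, 2200.5, 422 and 9506 in WT replicates 1 to 4 and 12250, 3591, 168 and 2645 in cKO replicates 1 to 4, and 0 of the 14 genes were at 0 in every library. WT replicate 1 had the lowest sum and WT replicate 4 the second highest, with Fasn at 34337 and 20457 CPM. The highest sum was in cKO replicate 1 and the second lowest in cKO replicate 3, with Fasn at 30401 and 21924.5 CPM. The 10 summed brown adipocyte markers varied less, with 11875 to 13717 CPM over the controls and 10519 to 14831 CPM over the knockouts, and this list holds Elovl3. Within it Prdm16, a regulator of brown fat identity, had 17.8 ± 3.78 CPM over the controls and 30.7 ± 4.03 CPM over the knockouts without overlap (edgeR adjusted p = 0.242, DESeq2 adjusted p = 0.00396), and Dio2, which activates thyroid hormone, 100.4 ± 34.1 and 162 ± 55.1 CPM (edgeR adjusted p = 0.890). Pparg had 167 ± 9.68 and 192 ± 15.6 CPM (edgeR adjusted p = 0.886). Prdm16 and Dio2 had the largest log2 fold changes of the list, in which 6 were positive and 4 negative, with a median of 0.11. The most abundant markers, Fabp4 and Ucp1, were at -0.02 and 0.30, and Cidea was lowest at -0.13. White fat markers summed to between 141 and 194 CPM in controls and between 83.0 and 224 CPM in knockouts. WT replicate 1 was also the deepest library. The part of muscle content and of depth in these patterns was not tested. In bulk tissue, fewer cells of a type and less RNA per cell cannot be told apart.

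Members varied together across libraries. Over the 595 pairs of members the median Pearson r of log2 CPM was 0.32, with 74.0% of pairs positive and 16.6% above 0.7, beside 49.8% positive and 4.2% above 0.7 for all pairs of genes tested. With the group means removed the median was 0.34. All points share the same 8 libraries, so the values are a description. Within roles the median r was 0.75 for the NADPH genes, 0.71 for supply and synthase, 0.69 for the 3 regulators, 0.53 for elongases and 0.47 for desaturases. Triglyceride assembly had no common course, with a median of -0.02 and a range from -0.73 to 0.82.

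Of 15 pairs of a regulator and its target or of consecutive steps, 14 could be tested (Mlxipl with Pklr could not), with exact permutation of the 8 libraries, two-sided, and adjustment over the 14. Fasn and Acaca had r = 0.96 (exact permutation p = 0.000769, adjusted p = 0.00938) and rho = 0.90 (exact permutation p = 0.00456, adjusted p = 0.0213). Fasn and Acly had r = 0.92 (exact permutation p = 0.00134, adjusted p = 0.00938) and rho = 0.93 (exact permutation p = 0.00223, adjusted p = 0.0213). Both relations kept their size without WT replicates 1 and 3, the libraries farthest from the median of Fasn (r = 0.91 and 0.86), and with group means removed (0.96 and 0.93). Without WT replicate 1 alone they were 0.93 and 0.86, and neither then passed the adjusted threshold (exact permutation, adjusted p = 0.0722 for each over 7 libraries).

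**Figure D5:**
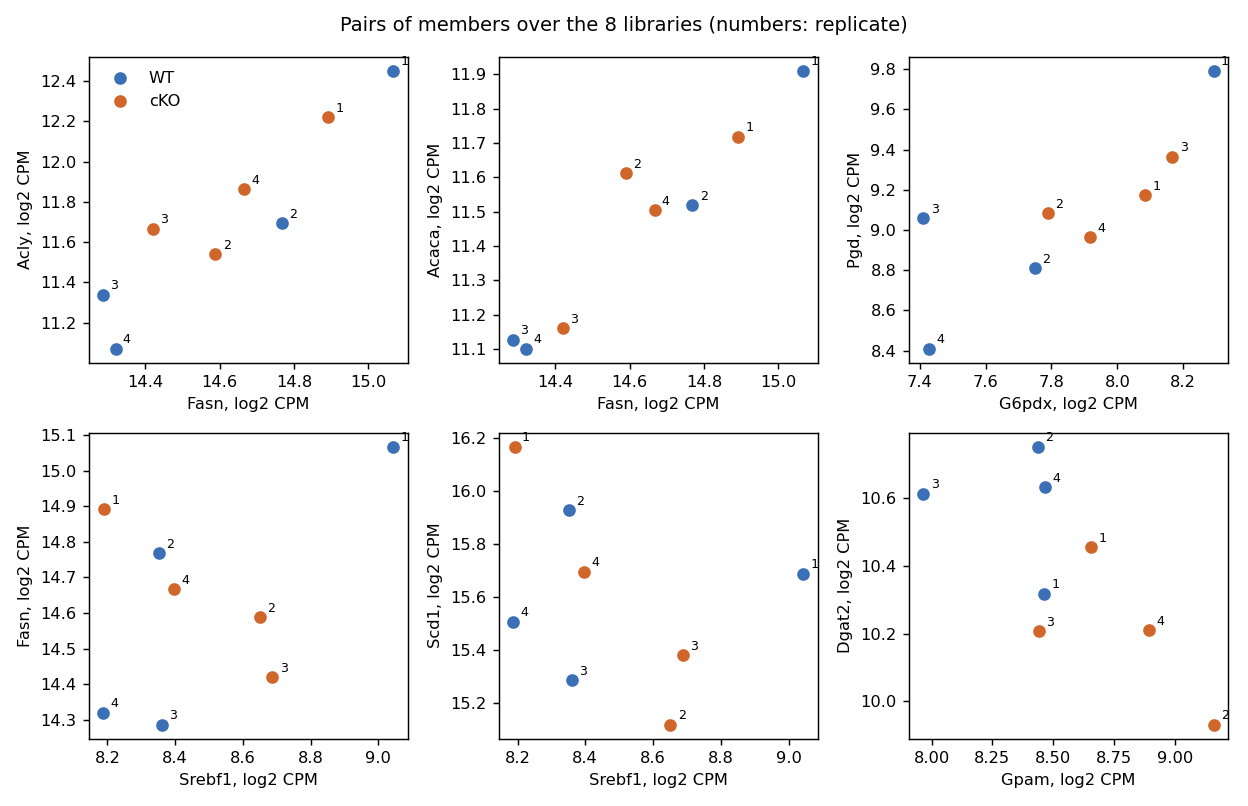
Log2 CPM of 6 pairs of members in the 8 libraries (WT blue, cKO orange, numbers are replicates). Fasn rises with Acly and Acaca along the whole range, whereas WT replicate 1 lies apart from the other points in the panels of Srebf1.

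None of the tested pairs that hold a regulator passed the adjusted threshold. Srebf1 and Pnpla3 had r = 0.63 (exact permutation p = 0.0989, adjusted p = 0.198) and rho = 0.64 (exact permutation p = 0.0962, adjusted p = 0.192), and r was 0.07 without WT replicate 1 and cKO replicate 3. Srebf1 and Acaca had r = 0.45 (exact permutation p = 0.261, adjusted p = 0.406) and rho = 0.40 (exact permutation p = 0.327, adjusted p = 0.504). Srebf1 and Fasn had r = 0.41 (exact permutation p = 0.319, adjusted p = 0.412) and rho = 0.24 (exact permutation p = 0.582, adjusted p = 0.741), and r was -0.02 without WT replicate 1 and cKO replicate 3. Thrsp and Fasn had r = 0.41 (exact permutation p = 0.324, adjusted p = 0.412) and rho = 0.12 (exact permutation p = 0.793, adjusted p = 0.840), and r was -0.72 without WT replicates 1 and 4. Without the same 2 libraries as for Fasn, r of Srebf1 was 0.29 with Acaca and -0.66 with Scd1. Without WT replicates 2 and 4, r of Mlxipl was -0.15 with Acly and 0.06 with Fasn. Leaving out the 2 libraries farthest from the median of the first gene narrows its range. A lower r can then follow for a true relation too, so no conclusion is drawn from these falls. Srebf1 and Scd1 had r = -0.32 (exact permutation p = 0.435, adjusted p = 0.507) and rho = -0.38 (exact permutation p = 0.360, adjusted p = 0.504). Mlxipl and Fasn had r = 0.13 (exact permutation p = 0.747, adjusted p = 0.747) and rho = 0.10 (exact permutation p = 0.840, adjusted p = 0.840). For Mlxipl and Acly r was 0.27 (exact permutation p = 0.510, adjusted p = 0.549) and rho 0.19 (exact permutation p = 0.665, adjusted p = 0.775). Outside the planned pairs, the highest r of Srebf1 over the same 8 libraries was with Thrsp (0.88), Aacs (0.85), Pgd (0.82) and Elovl5 (0.81). Like Srebf1, each of them was highest in WT replicate 1 and lowest in WT replicate 4. These values were picked after they were seen and were not recomputed without those libraries, so they are a description. No difference between correlations was tested.

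Among the remaining pairs, G6pdx and Pgd had r = 0.81 (exact permutation p = 0.0120, adjusted p = 0.0549) and rho = 0.81 (exact permutation p = 0.0218, adjusted p = 0.0610), and r was 0.95 without WT replicates 1 and 3. Fasn and Elovl6 had r = 0.80 (exact permutation p = 0.0157, adjusted p = 0.0549). Their rho was 0.81 (exact permutation p = 0.0218, adjusted p = 0.0610). For Scd1 and Scd2 r was 0.48 (exact permutation p = 0.227, adjusted p = 0.398) and rho 0.67 (exact permutation p = 0.0831, adjusted p = 0.192). Fads1 and Fads2, which lie side by side on chromosome 19, had r = 0.77 (exact permutation p = 0.0246, adjusted p = 0.0689) and rho = 0.90 (exact permutation p = 0.00456, adjusted p = 0.0213). Gpam and Dgat2, the first and last acyltransferase of the route, ran against each other with r = -0.73 (exact permutation p = 0.0358, adjusted p = 0.0834) and rho = -0.57 (exact permutation p = 0.151, adjusted p = 0.264). That relation was smaller with group means removed (r = -0.47) and without WT replicate 3 and cKO replicate 2 (r = -0.44), and it did not pass the adjusted threshold.

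Genes that control SREBP and ChREBP were described alongside, and edgeR and DESeq2 called 0 of the 15. Of these, 4 had an unadjusted edgeR p under 0.05, with 3 lower and 1 higher in cKO. Over all genes tested the share was 5.6%, with 502 lower and 313 higher. The median log2 fold change of the 15 was -0.00. Scap, the escort of SREBP from the endoplasmic reticulum, held 40.5, 41.0, 41.0 and 37.1 CPM in WT and 34.1, 35.9, 32.4 and 32.4 CPM in cKO (log2 fold change -0.24, unadjusted p = 0.0250, edgeR adjusted p = 0.882). Usf1, an E-box factor of lipogenic promoters, held 16.9, 16.6, 19.9 and 18.1 CPM in WT and 15.2, 14.5, 15.1 and 12.0 CPM in cKO (log2 fold change -0.33, unadjusted p = 0.0228, edgeR adjusted p = 0.882). Scap and Usf1 were the 2 genes of the list whose groups did not overlap, with every cKO library below every control, as for 3.5% of all genes in either direction. Cebpa, a factor of adipocyte differentiation, averaged 445 ± 67.1 CPM over the controls and 353 ± 47.1 CPM over the knockouts (unadjusted p = 0.0302, edgeR adjusted p = 0.882). The 1 higher gene was Mbtps2, with 11.4 ± 0.989 and 14.1 ± 2.03 CPM (log2 fold change 0.31, unadjusted p = 0.04999, edgeR adjusted p = 0.884). Insig1, which retains SREBP in the endoplasmic reticulum and is itself an SREBP target, had 546 ± 101 and 565 ± 59.6 CPM (log2 fold change 0.05).

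Other enzymes of fatty acid and NADPH metabolism gave 0 of 19 tested genes called by edgeR or DESeq2 and 0 with an unadjusted edgeR p under 0.05, with a median of 0.12. Me3, a mitochondrial malic enzyme, had 39.4 ± 3.40 and 33.6 ± 3.01 CPM (unadjusted p = 0.0573, edgeR adjusted p = 0.886), and Hacd2, a dehydratase of the elongation cycle, 121 ± 16.4 and 151 ± 38.7 CPM (unadjusted p = 0.106, edgeR adjusted p = 0.890). The abundant pyruvate carboxylase Pcx and malate dehydrogenase Mdh1 had log2 fold changes of -0.07 and 0.16. Of 14 tested genes of glycerolipid metabolism outside the list, edgeR and DESeq2 called 0, and 2 had an unadjusted edgeR p under 0.05, both higher in cKO. They were Lclat1, a lysocardiolipin acyltransferase (22.7 ± 1.18 and 28.6 ± 4.34 CPM, unadjusted p = 0.0218, edgeR adjusted p = 0.882), and the acyl-CoA synthetase Acsl3 (41.0 ± 9.50 and 55.2 ± 8.81 CPM, unadjusted p = 0.0265, edgeR adjusted p = 0.882). Gpd1, which makes glycerol 3-phosphate from a glycolytic intermediate, was level at 6191 ± 640.4 and 6194 ± 796 CPM, with a 95% interval of -0.28 to 0.28. Pck1, which feeds the same pool through glyceroneogenesis, had 2646 ± 569.9 and 2379.7 ± 244 CPM (log2 fold change -0.15). Glycerol kinase, Gk, had the largest log2 fold change of this list, 0.85 with a 95% interval of -0.22 to 1.92. It held 134 ± 57.4 and 241 ± 107 CPM (unadjusted p = 0.102, edgeR adjusted p = 0.890).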

How the data were processed

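The authors deposited 1 table of estimated counts per Ensembl gene. StringTie, Salmon and edgeR, and the build GRCm38, are named in the submitters' processing notes; the sources used here give neither their roles nor the strand setting or annotation. Libraries were grouped by title. Counts were rounded to whole numbers, and symbols, exon lengths and transcripts came from GENCODE M21 on GRCm38, which named 99.5% of identifiers. Groups were compared with edgeR 4.0.16 (R 4.3.3), with TMM scaling, filterByExpr, the robust quasi-likelihood test and Benjamini-Hochberg adjustment over 14553 genes at 0.05. DESeq2 1.42.0, limma-voom (limma 3.58.1), other scalings and filters, left-out libraries, a replicate block, WT replicate 4 moved to cKO, and counts summed with near copies served as alternatives. Values in CPM use the TMM scaling, those in log2 CPM a prior count of 2, and ± gives the SD unless SE is written. Precision is limited by 4 libraries per group. Libraries of a group differed by more than sampling noise (smallest chi-square per degree of freedom 14.5). Genes sharing at least 50% of their 31-base sequences with a member count as near copies. Members and lists were chosen with earlier results of these data known. Besides the members and Dio2, Cidea, Mbtps2 and Gk, genes named from a list with no edgeR call are those with the lowest edgeR p and the highest level. The fit and the permutation test were tested on simulated data.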

Additional observations from a re-analysis of the deposited data

Results flagged for a closer look

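In 1 of 70 groups of 4 libraries (35 members in each genotype) a library stood apart by Dixon's gap test, which flags about 1 in 20 groups by chance. It was Gpam in WT, where replicate 3, at 250.2 CPM, lay below the other controls at 347 to 353 CPM. The gap took 0.943 of the group's range, above the 95% critical value for 4 libraries. Without that library the log2 fold change of Gpam was 0.36 (unadjusted p = 0.0404, edgeR adjusted p = 0.999). Neither WT replicate 1 nor WT replicate 4 stood apart by this test for any member. Where these libraries were the ends of the control group, each widened the range that divides the other's gap. The test could then hardly flag either, and no conclusion is drawn from it.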

How the results depend on the processing

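Under each of the 18 alternative settings of the comparison, 0 members were called, and the same holds for each left-out library (range 0 to 0). The count of all genes called was 10 and ran from 8 to 14 with a library left out, and it was 46 with DESeq2, 93 without a count filter and 1 with WT replicate 4 moved to cKO. The members' median log2 fold change of 0.07 ran from -0.03 (without WT replicate 4) to 0.19 (without WT replicate 1), was -0.10 with WT replicate 4 moved to cKO and, in a setting added after seeing the data, 0.15 without WT replicates 1 and 4. Of 630 recomputed fold changes of members, 69 (of 24 members) took the other sign, none of them of a member past the unadjusted threshold. The members at an unadjusted edgeR p under 0.05, of which there were 2, ran from 0 (without cKO replicate 2) to 10 (without WT replicate 1). By edgeR's quasi-likelihood test, Gpam lost its unadjusted p under 0.05 without cKO replicate 2 (0.0642), and Dgat2 without WT replicate 2 (0.0744), without cKO replicate 2 (0.0611) or with WT replicate 4 moved to cKO (0.131). The labels do not say what the replicate numbers mean. Deviations from the group means correlated at -0.46 to 0.41 between same-numbered replicates, which cannot settle whether they are paired. With a replicate block 0 members and 7 genes were called, and the median was 0.12. Of 168 recomputed correlations 157 kept their side of the threshold, 4 lost a call and 7 gained one. Of the scalings tried, DESeq2 size factors left 18 members highest in WT replicate 1 and 17 lowest in WT replicate 4, and upper quartile factors 18 and 20. The cause of these shifts was not tested.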
